A study of Rattus norvegicus with 8 samples.

Results

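The expression of 10 genes known for fetal liver growth and genomic imprinting was followed in adult rat liver after perinatal exposure to agonists of the aryl hydrocarbon receptor (AhR). These were H19, Igf2, Afp, Igfbp2, Gpc3, Dlk1, Igf2r, Cdkn1c, Peg3 and Grb10, chosen by name with earlier results of these data known. Of these 10 genes, 8 had a probe matched by RefSeq identifier, among 15154 named genes and 30367 probes. Peg3 and Grb10 had no matched probe and are not analysed here. Liver signal cleared the scanner's background test (well above background) on all 8 arrays for 7 of the 8 and on no array for Dlk1. The 7 genes are among 17859 probes kept for testing, which cleared that test in liver on a minimum of 4 arrays.

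In the fetus the liver grows rapidly and makes blood cells as well as plasma proteins. Igf2 encodes the fetal insulin-like growth factor, and it shares an imprinting control region with its neighbour H19, a long noncoding RNA transcribed from the maternal allele while Igf2 is transcribed from the paternal one. Igf2r encodes the receptor that carries IGF2 to lysosomes and so lowers its supply, Igfbp2 encodes a secreted protein that binds IGFs, and Cdkn1c encodes the cyclin-dependent kinase inhibitor p57. Afp encodes alpha-fetoprotein, the main plasma protein of the fetus, and Gpc3 encodes glypican-3, a heparan sulphate proteoglycan of the cell surface that restrains growth. Afp, H19 and Igf2 are strongly silenced in rodent liver after birth, and the zinc finger proteins ZHX2 and ZBTB20 are known postnatal repressors of Afp. Dlk1 encodes a membrane protein of hepatoblasts related to the Notch ligands.

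Livers came from male Sprague-Dawley rats killed at 78 to 86 days of age. The control group was born to dams given corn oil alone. The AhR group was born to dams given a mixture of AhR agonists in corn oil, made of non-ortho polychlorinated biphenyls, polychlorinated dibenzodioxins and dibenzofurans, at 1.8 ng of toxic equivalents per kg per day. Exposure covered gestation day 0 to postnatal day 20, and pups of both groups were reared by their own mothers. Each group had 4 arrays, and each array held RNA pooled from 2 rats, so 8 rats stood behind a group. Liver RNA was labelled with Cy5 on every array, and 200 ng of RNA went into labelling. The Cy3 channel held a universal rat reference RNA, labelled as a mixture from 14 cell lines. The labels do not say whether rats of different pools were littermates, so every p-value rests on the spread from pool to pool alone. The arrays address whether exposure around birth left a difference at these genes in adulthood.

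All 15 hepatocyte markers examined were measured in the liver channel. The channel labelled as reference carried the same markers at nearly the liver level, so their presence does not tell the channels apart. Their median liver minus reference difference was 0.20 (log2), 5 of the 15 were brighter in the reference, and none differed by more than 2-fold between channels. Over all kept probes, 130 of 17859 (0.728%) were more than 2-fold brighter in Cy3 and 1 (0.0056%) in Cy5. The reference is therefore named below by its channel. Liver signal was well above background for 56.2% to 62.0% of probes per array and reference signal for 58.3% to 66.8%, and no probe was saturated in Cy5. Precision is limited by the array number.

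H19 and Igf2 each host a microRNA, and the mature forms are shown because they are the short products of the locus whose genes had some of the lowest liver over reference ratios. RefSeq places all 4 within the host gene on build GRCr8, and their own levels are not analysed here. Seed bases 2 to 8 are in capitals, and no seed is shared among the 4.

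rno-miR-675-5p, chr1:207161800-207161821, - strand: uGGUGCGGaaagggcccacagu
rno-miR-675-3p, chr1:207161766-207161786, - strand: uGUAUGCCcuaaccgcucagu
rno-miR-483-5p, chr1:207247903-207247924, - strand: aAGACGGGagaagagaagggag
rno-miR-483-3p, chr1:207247865-207247886, - strand: cACUCCUCcccucccgucuugu

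Promoter windows for 8 of the 10 genes were in the RefSeq table for GRCr8, with 2 windows for Igf2 and 9 windows in all; each runs from 250 bases before to 50 bases after a transcript start. The windows of the 3 genes that were more than 2-fold brighter in Cy3 and had a window are shown here, limited to the 250 bases before the start and read 5′ to 3′ on the gene's strand. Capitals mark GCGTG, the core of the AhR response element, or GTTAAT, part of a motif of hepatocyte transcription factors, searched on both strands; CACGC is GCGTG on the other strand, and the letters of these motifs do not overlap each other here.

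Igf2 window 1, chr1:207253981-207254230, - strand: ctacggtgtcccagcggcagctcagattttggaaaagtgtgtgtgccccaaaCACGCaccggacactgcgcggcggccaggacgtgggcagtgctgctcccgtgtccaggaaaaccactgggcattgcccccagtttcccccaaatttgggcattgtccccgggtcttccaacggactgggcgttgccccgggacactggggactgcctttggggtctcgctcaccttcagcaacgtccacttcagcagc
Igf2 window 2, chr1:207250476-207250725, - strand: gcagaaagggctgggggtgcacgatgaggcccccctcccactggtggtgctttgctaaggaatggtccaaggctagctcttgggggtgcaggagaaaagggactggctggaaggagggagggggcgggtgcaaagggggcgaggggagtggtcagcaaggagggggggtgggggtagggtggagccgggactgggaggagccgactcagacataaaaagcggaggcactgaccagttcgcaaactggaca
Afp, chr14:17875646-17875895, - strand: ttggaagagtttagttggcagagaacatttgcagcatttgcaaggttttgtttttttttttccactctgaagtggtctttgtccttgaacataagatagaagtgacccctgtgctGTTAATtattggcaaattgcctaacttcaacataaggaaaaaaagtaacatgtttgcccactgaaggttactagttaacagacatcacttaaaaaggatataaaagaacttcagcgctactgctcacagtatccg
Igfbp2, chr9:81864561-81864810, + strand: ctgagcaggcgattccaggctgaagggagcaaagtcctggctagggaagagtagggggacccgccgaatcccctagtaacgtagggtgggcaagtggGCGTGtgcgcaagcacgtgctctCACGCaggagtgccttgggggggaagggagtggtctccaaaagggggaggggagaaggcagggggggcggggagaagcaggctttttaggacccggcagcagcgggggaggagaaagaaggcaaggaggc

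GCGTG was present in 6 of the 9 windows, against 29.7% of 33469 rat promoter windows of 300 bases. It occurred 5 times before the Dlk1 start, 3 times before Gpc3, 2 times before Igfbp2 and before Grb10, and once before Peg3 and in the first Igf2 window. No match stood in the second Igf2 window or in those of Afp and Igf2r. GTTAAT stood in the Afp window alone among the 9, against 7.45% of all windows. These are matches of letters, and binding was not measured. GCGTG itself holds a CG, and the 250 bases before the start held 2 CG pairs for Afp and 41 for Dlk1. The share over all rat windows was not matched for CG content. Of the genes with a GCGTG match, Dlk1, Peg3 and Grb10 had no ratio here.

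Values are log2 ratios of liver (Cy5) over reference (Cy3), and arrays are listed as replicates 1 to 4 of each group. H19 stood at -5.51, -5.34, -5.50 and -5.41 on the control arrays. On the AhR arrays it stood at -5.67, -5.77, -5.71 and -5.41. AhR replicates 1, 2 and 3 lay below every control array, and AhR replicate 4 lay within the control range, so the groups overlapped. Control arrays averaged -5.44 ± 0.08 (SD, n = 4) and AhR arrays -5.64 ± 0.16 (SD, n = 4). The difference, AhR minus control, was -0.20 (SE 0.10), with a 95% interval of -0.42 to 0.03, or 0.745- to 1.02-fold. It did not pass the test in limma (unadjusted p = 0.0773, adjusted p = 1.00 over all kept probes), and the two-sided exact permutation test gave p = 0.0857. The smallest p that 4 against 4 arrays can give in that test is 0.0286. H19 had the lowest p of the 7 genes. In these bulk samples fewer cells of a type and less RNA per cell cannot be told apart.

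The first and second rows of arrays on the slide each held 2 arrays of both groups. The H19 difference was -0.08 within the first row and -0.31 within the second. Without AhR replicate 4 it was -0.28 (unadjusted p = 0.0173, adjusted p = 1.00 in limma). The H19 signal in Cy3, which held the same RNA on every array, differed between groups by -0.04.

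Igf2, the growth factor gene beside H19, stood at -3.88, -4.09, -4.06 and -4.08 on the control arrays. On the AhR arrays it stood at -4.04, -4.33, -4.11 and -3.74. The highest and the lowest Igf2 values were both AhR arrays. Control arrays averaged -4.02 ± 0.10 (SD, n = 4) and AhR arrays -4.06 ± 0.24 (SD, n = 4), which differ by -0.03 (SE 0.13; 95% interval -0.31 to 0.25, or 0.808- to 1.19-fold). Igf2 did not pass the test (limma unadjusted p = 0.810; two-sided exact permutation p = 0.886).

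Igf2r, the gene of the clearing receptor for IGF2, stood at -0.15, -0.18, -0.34 and -0.29 in control. In AhR it stood at -0.17, -0.42, -0.40 and -0.02. Its group means were -0.24 ± 0.09 and -0.26 ± 0.19 (SD, n = 4 each), a difference of -0.01 (SE 0.11; 95% interval -0.26 to 0.23, or 0.836- to 1.17-fold), and AhR arrays lay both above and below the whole control range. The limma unadjusted p was 0.911 and the exact permutation p was 0.943.

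Igfbp2, the gene of an IGF-binding protein, stood at -2.60, -3.27, -3.14 and -2.87 in control and at -2.79, -3.24, -2.98 and -2.53 in AhR. Both groups spanned almost the same range. The means were -2.97 ± 0.30 and -2.89 ± 0.30 (SD, n = 4 each), a difference of 0.08 (SE 0.18; 95% interval -0.31 to 0.47, or 0.808- to 1.39-fold; limma unadjusted p = 0.650). A second Igfbp2 probe gave a difference of 0.16, and the ratios of the 2 probes followed each other over the 8 arrays with r = 0.93.

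Afp, the alpha-fetoprotein gene, stood at -3.86, -3.86, -4.29 and -4.18 in control and at -4.48, -4.08, -4.02 and -4.38 in AhR. The lowest values, AhR replicates 1 and 4, lay below all control arrays, and the other AhR arrays lay within the control range. The means were -4.05 ± 0.22 and -4.24 ± 0.22 (SD, n = 4 each), a difference of -0.19 (SE 0.14; 95% interval -0.50 to 0.12, or 0.705- to 1.09-fold). Afp did not pass the test (limma unadjusted p = 0.205; two-sided exact permutation p = 0.286).

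Gpc3, the glypican-3 gene, stood at -0.54, -0.82, -0.34 and -0.22 in control and at -0.17, -0.26, -0.44 and -0.34 in AhR. All 4 AhR arrays lay above the control mean, yet the groups overlapped, and the widest departure was control replicate 2 at the low end. The means were -0.48 ± 0.26 and -0.30 ± 0.11 (SD, n = 4 each), a difference of 0.18 (SE 0.13; 95% interval -0.11 to 0.47, or 0.924- to 1.38-fold; limma unadjusted p = 0.207). The Gpc3 spot was dim in liver, at 96.2 to 183.8 units over a background of 71.5 to 77.2. Without control replicate 2 the difference was 0.06, and with Agilent's processed signals it was 0.46 (limma unadjusted p = 0.160).

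Cdkn1c, the p57 gene, stood at -0.49, -0.89, -0.83 and -0.54 in control and at -0.54, -0.87, -0.83 and -0.74 in AhR. The groups covered almost the same range, with a difference of -0.06 (SE 0.12; 95% interval -0.33 to 0.21, or 0.797- to 1.16-fold; limma unadjusted p = 0.640). A second Cdkn1c probe gave -0.03, and the ratios of the 2 probes had r = 0.54 over the 8 arrays. Dlk1, the hepatoblast gene, did not clear the background test in either channel of the 8 arrays, so it has no ratio or fold here. Its spots read 71.8 to 80.8 units in Cy5 over a local background of 70.5 to 76.5, and 26.2 to 34.2 units in Cy3 over 18.5 to 24.0.

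**Figure D1:**
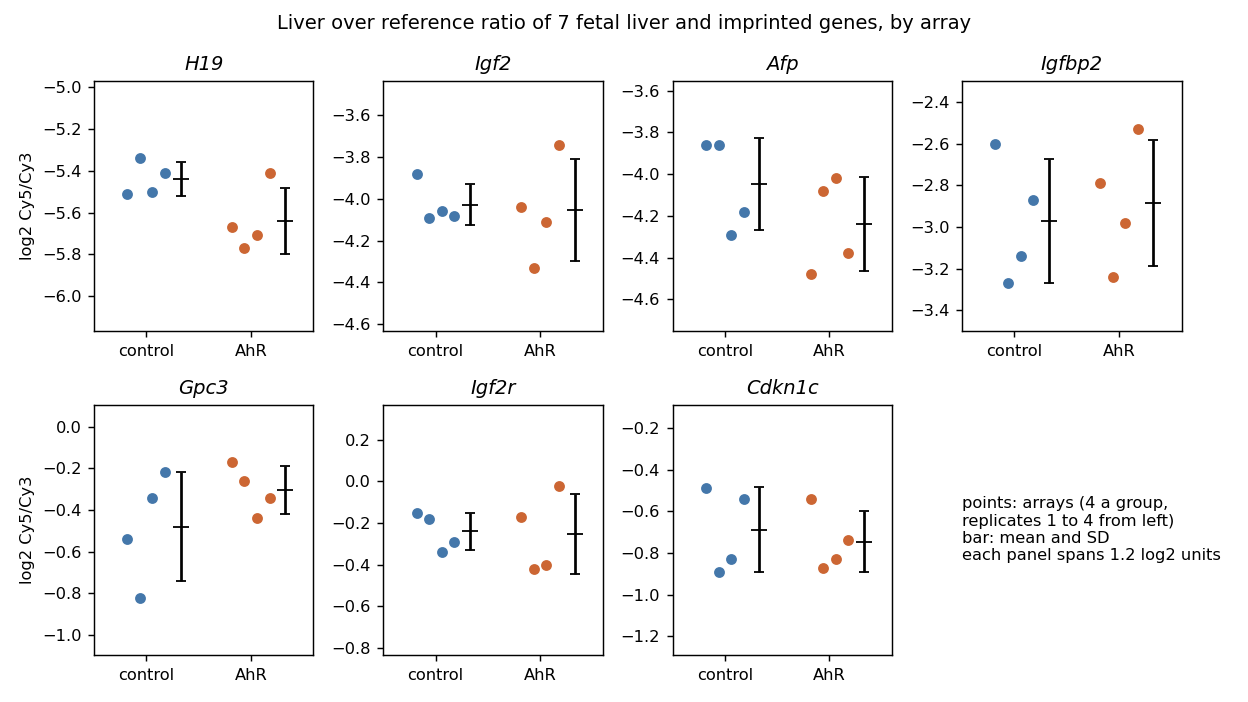
Log2 ratio of liver (Cy5) over reference (Cy3) for each of the 7 measured genes, one panel per gene, each spanning the same length of log2 scale; points are single arrays, 4 control and 4 AhR, and lines show the group mean and SD. Control and AhR points overlap in every panel, and for H19 3 AhR arrays lie below all control arrays.

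None of the 7 genes passed an adjusted p of 0.05 in limma, and none of the 17859 probes did (0%). At an unadjusted p under 0.05, 288 probes (1.61%) stood apart, 137 lower in AhR (0.767%) and 151 higher (0.846%), and none of the 7 genes was among them. H19 reached an unadjusted p of 0.0264 in limma with Cy5 alone (-0.27) and of 0.0467 with no filter on dim probes (-0.20), with adjusted p of 1.00 in both. Groups did not overlap for 212 probes (1.19%) and for none of the 7 genes. A lower mean in AhR was seen for 5 of the 7 genes and a higher one for 2, where 52.3% of all probes were lower. Their median difference was -0.03, against -0.01 over all kept probes. With this processing the intervals reach down to 0.745-fold for H19 and to 0.705-fold for Afp, and up to 1.39-fold for Igfbp2 and 1.38-fold for Gpc3. Within the first and second slide rows the differences were -0.15 and -0.23 for Afp and 0.14 and 0.21 for Gpc3. The directions for Igf2 and Igf2r turned with Agilent's processed signals, with median centring and with Cy5 alone, and that for Cdkn1c turned with median centring.

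**Figure D2:**
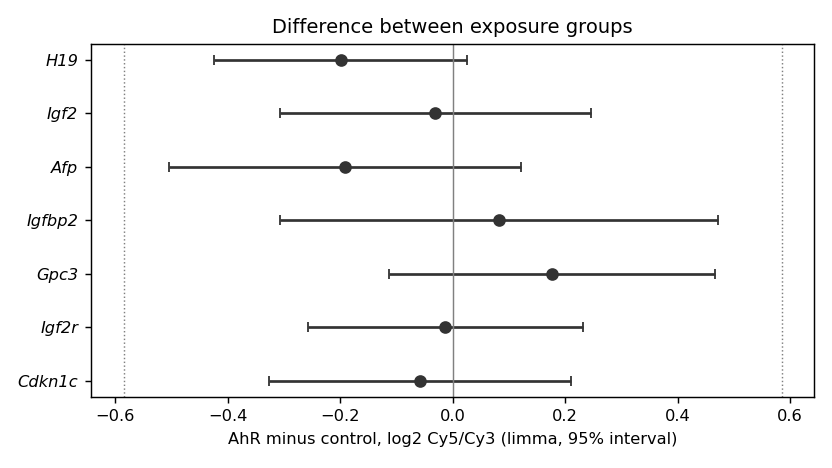
Difference AhR minus control in log2 liver over reference ratio for the 7 genes, with 95% intervals from limma; the dotted lines mark 1.5-fold in either direction. Every interval includes 0, from H19 at -0.20 to Gpc3 at 0.18.

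H19, Afp, Igf2 and Igfbp2 were far brighter in the reference channel than in adult liver. Each fold below is the reference signal over the liver signal at the same probe, which dye bias could alter because dyes were not swapped. H19 was 46.5-fold brighter in Cy3, from 40.6- to 54.6-fold over the 8 arrays, and its ratio was the lowest of all 17859 kept probes. Its raw liver spots still read 3212.5 to 5046 units, against 94604 to 136250 units in Cy3. Afp was 17.7-fold brighter in Cy3 (14.5 to 22.3) and had rank 5 from the lowest ratio. Its raw liver spots read 5686.8 to 12708 units, against 82381 to 94386.5 in Cy3. Both genes therefore had liver spots far above background in adults of both groups.

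Igf2 was 16.4-fold brighter in Cy3 (13.4 to 20.1), rank 6, and its liver spots were dim, at 155.8 to 227.5 units against 1824.5 to 2307 in Cy3. Igfbp2 was 7.60-fold brighter in Cy3 (5.77 to 9.64), rank 22, with liver spots of 310.8 to 632 units. The other genes differed by less than 2-fold between channels. Cdkn1c was 1.64-fold brighter in Cy3 (rank 259), Gpc3 1.31-fold (rank 710) and Igf2r 1.19-fold (rank 1613).

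All 7 genes were brighter in Cy3, where 48.4% of kept probes were, and 4 of them by more than 2-fold, where 0.728% of kept probes were. The split over all probes moved with the scaling: 64.1% were brighter in Cy3 with Agilent's processed signals, 29.7% with median centring and 40.8% in the deposited value table. The ranks of H19, Igf2, Afp and Igfbp2 stayed within 1 to 32 under those settings. Igf2r moved to equal brightness (0.00) and rank 5286 with median centring. With Agilent's processed signals Afp ranked 16 and H19 ranked 2. The fold ranges given above are over arrays, and the ratios also moved with the processing. Under the 6 other settings the mean log2 ratio lay between -4.793 and -3.84 for Igf2 and between -3.215 and -2.696 for Igfbp2. It lay between -5.621 and -5.227 for H19 and between -4.277 and -3.818 for Afp. For Cdkn1c it lay between -0.926 and -0.578, and for Gpc3 between -0.83 and -0.39.

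**Figure D3:**
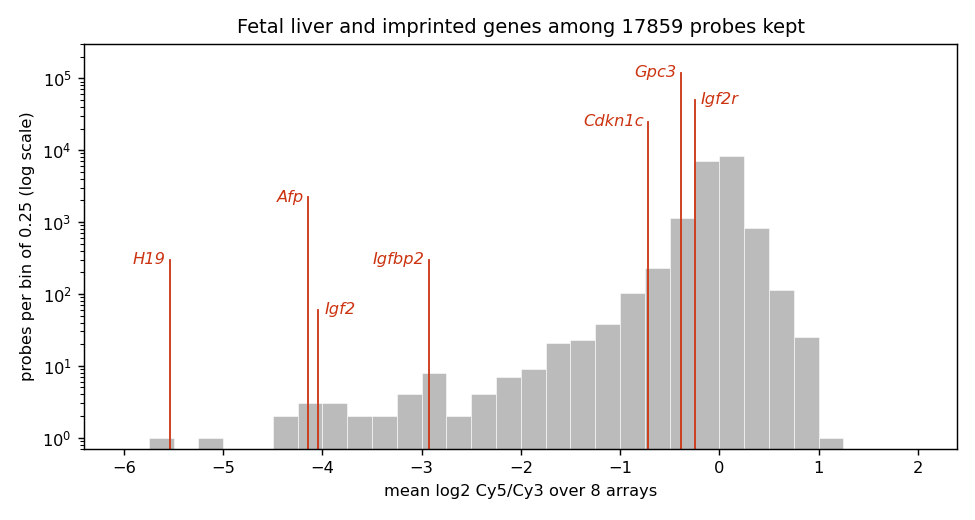
Number of kept probes per bin of mean log2 liver over reference ratio (log scale on the vertical axis), with the 7 genes marked by red lines whose heights carry no value. H19, Afp, Igf2 and Igfbp2 lie in the sparse left tail, and Cdkn1c, Gpc3 and Igf2r lie at the left flank of the main peak.

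The spread between arrays of the same group is given for each channel. Cy3 held 1 RNA on every array and Cy5 held different pools, and the dyes and the brightness of the spots differed too, so the channels' SDs are set side by side without a comparison. Igfbp2 had a Cy5 SD of 0.33 (log2) and a Cy3 SD of 0.048. H19 had the smallest Cy5 SD of the 7 genes, at 0.098 in Cy5 and 0.075 in Cy3. Afp had 0.19 and 0.11, Gpc3 0.18 and 0.052, Igf2 0.17 and 0.047, Cdkn1c 0.17 and 0.040, and Igf2r 0.13 and 0.058. The medians over all kept probes were 0.16 in Cy5 and 0.078 in Cy3. By the SD of the ratio, 88.8% of kept probes were less variable than Igfbp2, 72.7% were less variable than Afp, and 25.1% were less variable than H19. None of the 7 genes had a ratio SD above 0.5, which 1.84% of kept probes had.

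**Figure D4:**
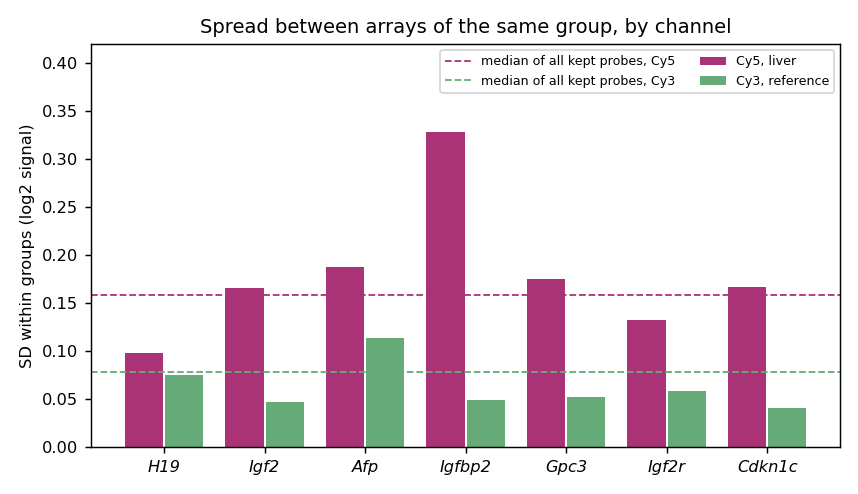
Pooled SD within groups of the log2 signal in Cy5 (liver) and Cy3 (reference) for each of the 7 genes; lines mark the medians over all kept probes. Igfbp2 has the tallest Cy5 bar, at 0.33, and a Cy3 bar of 0.048.

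Ratios were correlated over the 8 arrays for 7 pairs of genes, chosen for a shared locus, postnatal repressor or ligand. The pair Afp with Igfbp2 was among the 7 but falls under none of these. Igf2 and Igf2r had r = 0.86 (exact permutation p = 0.00404, adjusted over the 7 pairs 0.0161) and Spearman's rho = 0.90 (p = 0.00456, adjusted 0.0319). Without the arrays farthest from the Igf2 median, AhR replicates 2 and 4, r was 0.62 (exact permutation p = 0.151). Dropping the extreme arrays narrows the range and leaves fewer arrays, so this cannot tell whether the relation rests on them. Without AhR replicate 2 alone the call was kept (r = 0.82, adjusted exact p = 0.0421). Leaving out AhR replicate 4 alone ended the call (r = 0.75, adjusted exact p = 0.0667), and so did Agilent's processed signals (r = 0.59, adjusted exact p = 0.297), median centring (r = 0.77, adjusted exact p = 0.0956) and Cy5 alone (r = 0.84, adjusted exact p = 0.0505).

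Igf2 and Igfbp2 had r = 0.84 (exact permutation p = 0.00459, adjusted 0.0161) and rho = 0.83 (p = 0.0154, adjusted 0.0538). Without AhR replicates 2 and 4, r was 0.74 (exact permutation p = 0.0764), which no longer passed. The call ended without AhR replicate 4 (r = 0.75, adjusted exact p = 0.111) and without control replicate 1 (r = 0.81, adjusted exact p = 0.0778). Of the 10003 other named genes kept, 0.27% followed Igf2 at least as closely as Igf2r did, and 0.38% at least as closely as Igfbp2 did. The ratios share the Cy3 signal of their array, and the genes share the pools. With Cy5 alone, Igf2 and Igfbp2 had r = 0.97 (adjusted exact p = 0.00208).

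Afp and Gpc3 ran opposite, with r = -0.77 (exact permutation p = 0.0177, adjusted 0.0412) and rho = -0.79 (p = 0.0279, adjusted 0.0652). Without AhR replicate 1 and control replicate 1, the arrays farthest from the Afp median, r was -0.71 (exact permutation p = 0.104), which no longer passed. The call ended when any of AhR replicates 1, 3 and 4 or control replicates 1, 2 and 3 was left out, and r was then -0.80 to -0.72 (adjusted exact p 0.0718 to 0.143). It was -0.25 with median centring. As many as 3.32% of genes had an r with Afp at least as negative. The neighbours Igf2 and H19 had r = 0.56 (exact permutation p = 0.156) and rho = 0.33, and r was 0.02 without AhR replicates 2 and 4. Afp and H19 had r = 0.13 (p = 0.756), H19 and Gpc3 -0.47 (p = 0.243), and Afp and Igfbp2 -0.31 (p = 0.443), by the same exact permutation test. Each row of the slide holds 4 arrays, too few for a correlation within rows.

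**Figure D5:**
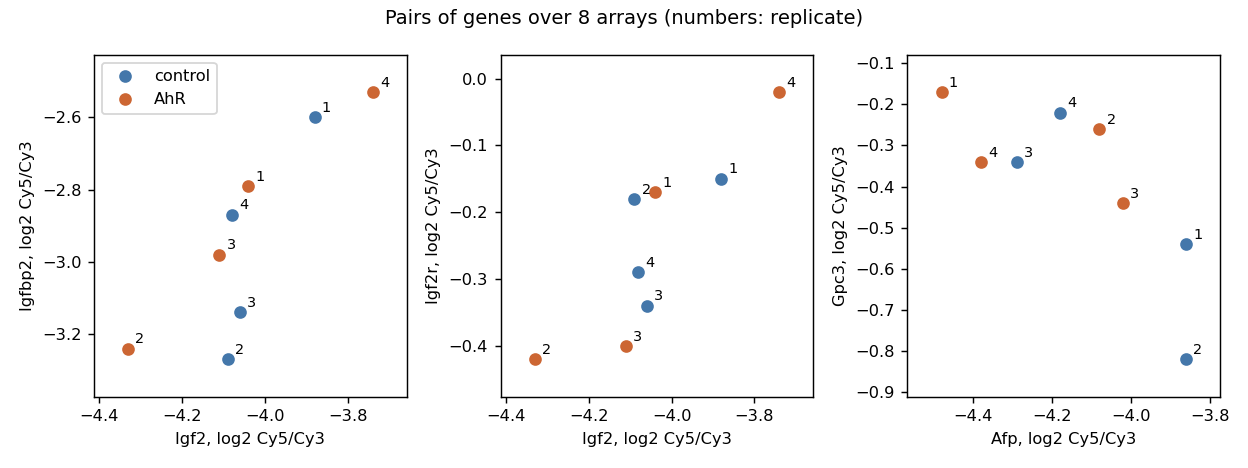
Log2 liver over reference ratios of 3 pairs of genes, each point 1 array numbered by its replicate, blue for control and orange for AhR. Igfbp2 and Igf2r rise with Igf2 (r = 0.84 and 0.86), with AhR replicates 2 and 4 at the ends, and Gpc3 falls as Afp rises (r = -0.77).

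The named genes most like each of the 7 in their pattern were taken by Pearson's r over the 8 arrays among 10003 genes, as a description. They were Srms (0.953), Eya3 (0.935) and Cox8b (0.923) for H19, and Crat (0.954), Tamalin (0.945) and Slc16a13 (0.944) for Igf2. For Afp they were S100a10 (0.973), Dgat2l6 (0.970) and 2700097O09Rikl (0.959). For Igfbp2 they were Vnn1 (0.962), Hip1r (0.954) and Tpbg (0.935). For Gpc3 they were Grhpr (0.988), Akap7 (0.974) and Htra2 (0.974), for Igf2r Pde4a (0.974), Tgif1 (0.962) and Cidea (0.938), and for Cdkn1c Helz (0.984), Sulf2 (0.941) and Hdac11 (0.938). Crat encodes carnitine acetyltransferase and Vnn1 encodes the pantetheinase vanin-1. None of the other 9 genes under study was among these leaders.

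Related genes were read from lists, in which no gene passed an adjusted p of 0.05 in limma. Of 38 other imprinted genes, 30 had a probe and 22 were kept, 9 higher and 13 lower in AhR, with a median difference of -0.05. Copg2, a coat protein subunit gene beside Mest, was lower by the largest amount, -0.49 (SE 0.15, limma unadjusted p = 0.00858), from a control mean of 0.09 to -0.40 in AhR. It was the sole gene of the 22 at an unadjusted p under 0.05, where 1.61% of all probes were. Kcnq1, a potassium channel gene, differed by 0.24 and Ndn, the gene of necdin, by -0.11. The same list held 1 gene more than 2-fold brighter in Cy3, Mest, at 2.40-fold, where 4 of the 7 genes above exceeded 2-fold.

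The IGF axis list, with receptors, binding proteins and signalling genes, had 12 of 20 kept, 6 higher and 6 lower, with a median of 0.00 and no gene over 2-fold between channels. Igf1, the postnatal growth factor, differed by 0.08, Igfbp4 by 0.21, Igfals, the acid-labile subunit, by 0.22, and the insulin receptor substrate gene Irs1 by -0.14. Other fetal liver genes had 13 of 24 kept, 8 higher and 5 lower, with a median of 0.06, and 11 of the 13 were brighter in Cy3. Bex4 was 3.1-fold and Fabp5 2.24-fold brighter there. The lowest p-values in that list belonged to Plag1 (-0.13), Fabp5 (0.39, SE 0.29) and Gjb1 (-0.11). The Fabp5 difference was -0.02 within the first slide row and 0.79 within the second. A list drawn up as regulators of Afp, which also held Ctcf, Zfp57 and DNA methyltransferase genes, had 17 of 22 kept. Of those kept, 12 were higher and 5 lower, with a median of 0.09. Zbtb20, a postnatal repressor of Afp, differed by 0.13 (SE 0.18). Zhx2, the gene of the other repressor named above, was not among the genes of this list with a probe. Of the other genes in that list, the pioneer factor gene Foxa1 differed by -0.24 and the nuclear receptor gene Nr5a2 by -0.26. The DNA methyltransferase gene Dnmt3a differed by 0.21. Hepatocyte genes that rise after birth had 19 of 20 kept, 12 higher and 7 lower, with Cyp3a2 at 0.50, Otc at -0.20 and Cyp2c11 at 0.26. None of these named differences passed the adjusted threshold.

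Markers of other cells and states are given beside these genes; none passed the adjusted threshold, and their part in the differences above was not tested. Hepatocyte markers split 7 higher and 8 lower in AhR (median 0.00; Hnf4a 0.17, Alb -0.20, Serpina1 0.14), with summed log2 liver signals of 20.75 to 20.78 in control and 20.72 to 20.84 in AhR. Of 9 erythroid markers with a probe 8 were kept, 7 of them lower in AhR (median -0.33; Ahsp -0.70, Hbb -0.56, Slc4a1 -0.32), with sums of 18.02 to 18.69 against 17.57 to 18.42. The erythroid differences turned with the slide row: Hbb stood at 0.11 in the first row and -1.23 in the second, Ahsp at 0.29 and -1.69, Alas2 at 0.17 and -0.85, and Hba-a1 at 0.09 and -0.79. Of 11 cell cycle genes kept, 10 were lower (median -0.24; Bub1 -0.27, Ccna2 -0.35, Ccnb1 -0.34), with sums of 11.37 to 11.96 against 11.39 to 11.72.

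Of 11 Kupffer and macrophage markers kept, 10 were higher (median 0.15; Cd163 0.25, Adgre1 0.28, Cd5l 0.32), with sums of 15.18 to 16.12 against 15.74 to 16.41. All 7 endothelial markers kept were higher (median 0.14; Tie1 0.21, Oit3 0.36, Lyve1 0.31), with sums of 12.81 to 13.57 against 13.07 to 13.43. Of 11 stellate and fibroblast markers kept, 9 were higher (median 0.10; Dcn 0.33, Col1a2 0.24, Col3a1 0.18), with sums of 13.71 to 14.13 against 14.02 to 14.26. Of 9 cholangiocyte markers kept, 7 were higher (median 0.11; Cldn7 0.15, Krt19 0.19), with sums of 12.16 to 12.61 against 12.33 to 12.62. The array ranges of every list overlapped between groups.

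Outside liver, 7 of 12 skeletal muscle genes were kept and 6 of them were more than 2-fold brighter in Cy3, as the 4 fetal genes were. Their AhR minus control differences were small (Tnnt3 -0.18, Acta1 -0.14, Myog -0.12). Of 14 placenta and yolk sac genes 5 were kept, among them Rbp4 (-0.19), Apom (-0.12) and Ttr (-0.11), which adult liver also expresses, and the trophoblast genes Prl3b1, Prl3d1, Prl8a2, Gcm1, Hand1 and Tfap2c were not well above background in liver on any array. AhR targets had 4 of 10 kept (Nqo1 -0.35, Cyp1a2 0.26, Ugt1a6 -0.25). Cyp1a1, the textbook target, was well above background in liver on 2 control arrays and 1 AhR array.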

How the data were processed

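The intensity values are median spot and local background signals deposited by the authors. The scanner software was Feature Extraction 10.7.3.1 (Agilent), per the file headers. The deposited value table is in log2 units; set against the scanner values, its direction is Cy5 over Cy3 and its column medians are 0.00569 to 0.0165, and the exact dye correction stays unknown. The scanner files as used held median and not mean spot signals.

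From these, background was corrected by normexp (offset 50) and loess was applied within arrays (limma 3.58.1, R 4.3.3); Aquantile gave the channel levels. Of 62976 spots, 4259 were controls, left out. Probes were named by unversioned RefSeq accession through the GRCr8 table (18004 of 30367 probes, 11656 of them kept). A gene's probe was the one of highest mean Cy5 median signal. Both groups were compared with lmFit and eBayes, Benjamini-Hochberg adjusted over 17859 probes, without blocks, and the procedure was tested on simulated data. Exact permutation tests are two-sided.

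The genes and lists were chosen with earlier results of these data known. Of the lists, the genes of lowest p, 3 per list, were named, with Cyp1a1 and Cyp1a2 whatever their value; Mest, Bex4, Fabp5, Igf1, Zbtb20 and the trophoblast genes were named after their values were seen. One gene that the rule names is not reported here. Replicate numbers are given in the titles, and same-numbered arrays of both groups lay in the same slide column. Deviations of same-numbered arrays from their group means correlated at 0.00, -0.06, 0.05 and -0.37, so the numbers were not taken as pairs. Alternatives covered background, signal, normalization, the dim-probe filter, channel, blocks, variance model, probe choice and each array left out.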

Additional observations from a re-analysis of the deposited data

Results flagged for a closer look

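Igf2 in control replicate 1 stood at -3.88 (log2 liver over reference), while the other control arrays lay between -4.09 and -4.06. The gap to its nearest neighbour was 0.864 of the group's range, above Dixon's 95% critical value for 4 arrays. It was the only such value among 14 groups of 4 checked (7 genes in 2 groups), and chance gives about 1 in 20 groups. Without this array the Igf2 difference, AhR minus control, was 0.02 instead of -0.03, and neither passed the limma test.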

How the results depend on the processing

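No probe passed an adjusted p of 0.05 in limma under any of the 19 fits run, and no value of the 7 genes did (135 values over 20 settings, lowest adjusted p 0.913). H19 and Afp stayed lower and Gpc3 stayed higher in AhR in all of them. The changes of dim-probe filter, block and variance model cannot move these differences, so those settings do not bear on direction. The Gpc3 difference reached 0.46 with Agilent's processed signals (limma unadjusted p = 0.160), against 0.18. All 7 genes had a mean below 0 (brighter in Cy3) under the 6 other settings with both channels and with each of the 8 arrays left out. Those of the 6 that change the dim-probe filter alone leave each gene's mean as it was, so they could not differ. Igf2r with median centring was at -0.001. The median difference over the 7 genes, -0.03, lay between -0.03 and 0.05 under other processing and between -0.09 and 0.04 with an array left out.

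Uncalled directions turned as follows, and the cause was not tested. With Agilent's processed signals the differences were 0.077 for Igf2 and 0.044 for Igf2r. With median centring they were 0.05, 0.066 and, for Cdkn1c, 0.014. With Cy5 alone they were 0.026 and 0.027. With 1 array left out, the ranges crossed 0 for Igf2 (-0.134 to 0.061), Igf2r (-0.091 to 0.043), Cdkn1c (-0.128 to 0.008) and Igfbp2 (-0.036 to 0.206).

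The correlations were rerun under settings chosen after seeing the data. Igf2 with Igf2r lost its call with Agilent's processed signals (0.59), median centring (0.77) and Cy5 alone (0.84), and r was 0.75 to 0.90 with an array left out. Igf2 with Igfbp2 kept its call under all processing and had r of 0.75 to 0.91 with an array left out. Afp with Gpc3 lost its call with processed signals (-0.75), median centring (-0.25), Cy5 alone (-0.59) and deviations from group means (-0.71), with r of -0.83 to -0.72 with an array left out. Uncalled relations turned for Afp with H19 (-0.26 on deviations, -0.17 to 0.30 with an array left out) and for H19 with Gpc3 (0.27 with median centring).

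With the replicate number as a block, 0 probes were called. The median difference was -0.03, which this block cannot move because each number holds an array of each group. The numbers match the slide columns and are not known to pair the samples. Normexp on mean spot signals was not run. Liver spots were dim for Gpc3 and Igf2, and whether this limits the precision of their ratios was not tested. The within-group SD of the ratio was 0.20 for Gpc3 and 0.19 for Igf2. Over the 7 genes it ran from 0.12 for H19 to 0.30 for Igfbp2.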
